A study of Rattus norvegicus with 6 samples.

Results

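The 10 genes described here encode the peptidases and peptide transporters of the brush border, the layer of microvilli on the luminal face of proximal tubule cells: Mep1a, Mep1b, Mme, Anpep, Enpep, Dpp4, Ggt1, Dpep1, Slc15a1 and Slc15a2. Their probes were those whose RefSeq transcript belongs to one of these genes, which gave 17 probes of the 61537 non-control probes on the array. All 17 were well above background on all 6 arrays, and none carried an outlier flag or was saturated. Each gene was represented by its brightest probe among 29647 features tested (11924 of them named genes), and 5 of the 10 genes had further probes.

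The study measured RNA in the renal cortex, the outer zone of the kidney with its glomeruli and much of the proximal tubule, of male Sprague-Dawley (Crl:CD(SD)) rats bought at 5 weeks of age. In the first group 3 rats received 1000 mg/kg/day of the solvent dipropylene glycol (DPG), and in the control group 3 rats received water instead, both for 4 weeks on a basal diet with tap water. The route of dosing was not given in the sources used here. RNA of each animal was hybridised to 1 one-colour Agilent array.

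Small peptides and glutathione filtered at the glomerulus are broken down at the brush border, and the products are taken back into the tubule cell. Endopeptidases cut peptides internally, aminopeptidases and dipeptidyl peptidases trim them from the amino end, and dipeptidases and gamma-glutamyltransferase finish small peptides and glutathione. Free amino acids then enter through amino acid transporters, and dipeptides and tripeptides enter through proton-coupled peptide transporters. In the rat kidney the transporter Slc15a1 is known from the early, convoluted proximal tubule and Slc15a2 from the later, straight part.

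Between 41524 and 41937 probes were well above background on the DPG arrays, and between 39556 and 43184 on the control arrays. Control 3 had the fewest such probes and 34 spots with outlier flags, against at most 4 on any other array. Markers that define the proximal tubule (Slc34a1, Lrp2, Cubn, Aqp1 and Slc5a2) were all measured in both groups, with a summed signal of 704 to 768 times the 75th percentile of the array in DPG and 739 to 813 in control. The adrenal markers Cyp11b1, Cyp11b2 and Star did not pass the background filter. Cyp17a1, listed with them, passed at a dim 0.107 to 0.115 in DPG against 0.144 to 0.153 in control (log2 fold change -0.41 ± 0.07, all DPG below all control). The source of the Cyp17a1 signal was not tested. All DPG arrays lay on 1 slide with 1 scan time and all control arrays on another, so slide and treatment cannot be told apart. Precision was limited by the number of arrays. The labels call the replicates biological, and each array is a different animal.

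The comparison asked how these genes differed in the DPG rats relative to their controls. Of the 10 genes, 7 had higher signal in DPG at an unadjusted p of 0.05 and none was lower at that level, by limma. These were Mep1a, Mep1b, Mme, Anpep, Dpp4, Ggt1 and Slc15a2, with folds of 1.22 to 1.46. Across all features 12.4% passed that p, 6.68% on the higher side and 5.7% on the lower. In 6 of the 10 genes all DPG arrays lay above all control arrays and in none below, where the groups did not overlap for 19.7% of all features, 10.7% above and 8.96% below. The median log2 fold change of the 10 genes, DPG over control, was 0.39, and that of all features was 0.00. No gene passed the threshold of 0.05 after Benjamini-Hochberg adjustment over all features, where limma called 0 of 29647 (0%) and 3669 at an unadjusted p of 0.05. The limma adjusted p of the 7 genes lay between 0.256 and 0.398. Without DPG 2 the count of 7 dropped to 3 (Mep1a, Dpp4 and Ggt1), and 9.41% of all features passed that p.

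**Figure D1:**
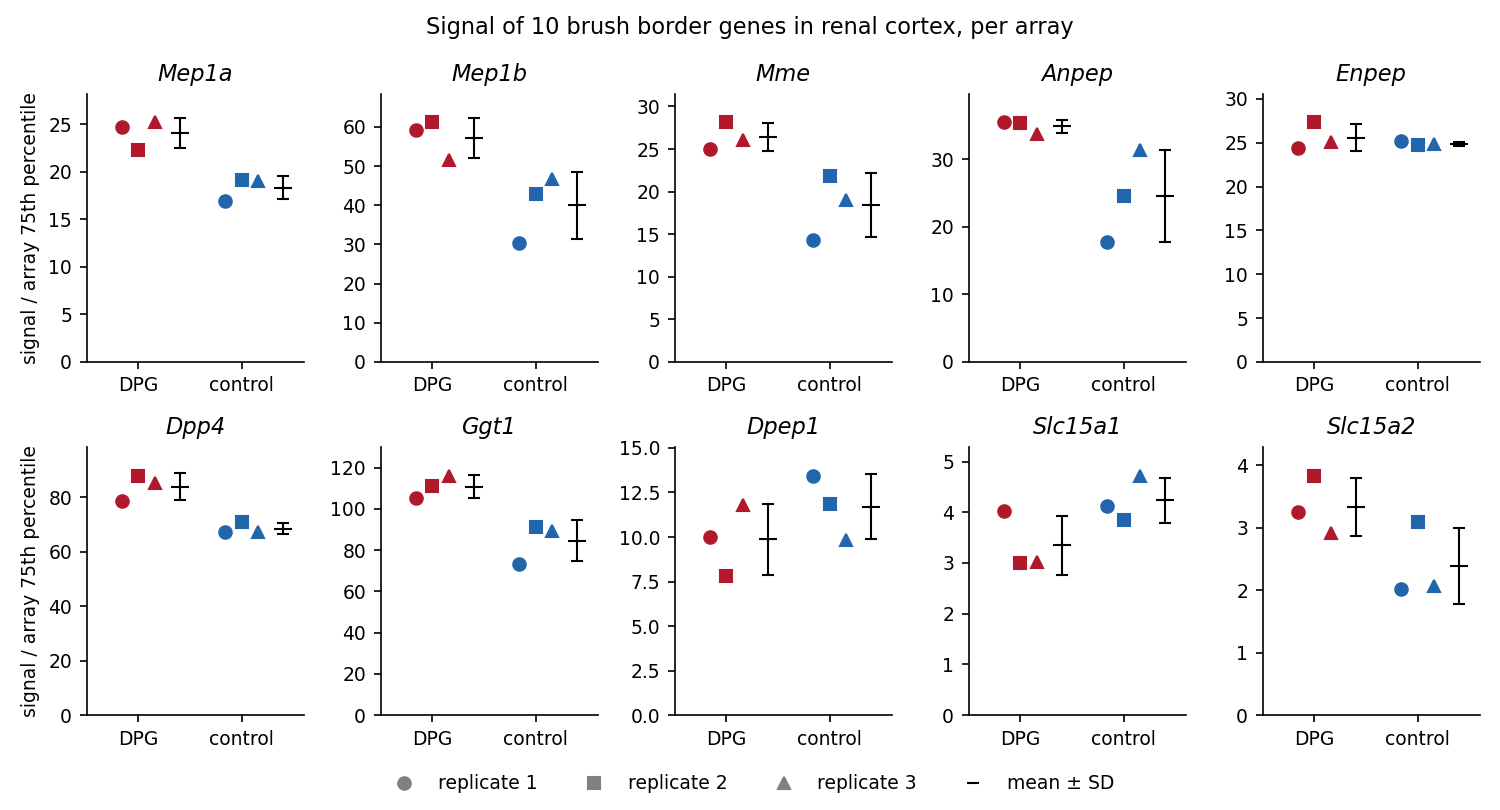
Signal of each gene's brightest probe on the 6 arrays, in multiples of the 75th percentile of the array, with DPG on the left, control on the right and the mean ± SD of 3 animals beside each. All DPG points lie above all control points for Mep1a, Mep1b, Mme, Anpep, Dpp4 and Ggt1, and the groups overlap for Enpep, Dpep1, Slc15a1 and Slc15a2.

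Among the endopeptidases, Mep1a and Mep1b encode the alpha and beta subunits of meprin, a zinc metalloprotease of the astacin family that is abundant in rodent kidney. Mep1a had signals of 24.8, 22.3 and 25.2 times the array's 75th percentile in DPG 1 to 3, against 16.9, 19.1 and 19.0 in controls 1 to 3. The groups did not overlap, and the lowest DPG array exceeded the highest control. This gave a log2 fold change of 0.39 ± 0.09 (SE, n = 3 animals per group, limma unadjusted p = 0.00398, adjusted p = 0.256). Its other probe read 16.9, 16.4 and 16.8 in DPG and 12.4, 15.9 and 13.0 in control. That probe gave a log2 fold change of 0.29 ± 0.11, also without overlap, though control 2 came close to the DPG arrays.

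Mep1b had signals of 59.1, 61.2 and 51.5 in DPG, against 30.4, 42.9 and 46.6 in control. The control arrays were more spread (SD 0.33 on the log2 scale) than the DPG arrays (SD 0.13), with control 1 well below the others. Its log2 fold change of 0.54 ± 0.18 (SE, n = 3 animals per group, limma adjusted p = 0.346) became 0.35 without control 1, and the unadjusted p was 0.0630 without DPG 1 and 0.0689 without DPG 2. Its other probe read 15.6, 16.5 and 14.2 in DPG and 7.85, 11.5 and 12.0 in control, with a log2 fold change of 0.58 ± 0.18. Both probes placed the arrays of each group in the same order. The log2 difference between the 2 meprin genes differed between DPG and control arrays by -0.15 (exact permutation test, two-sided, p = 0.5; adjusted over 3 pairs, p = 0.5), with overlapping groups.

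Mme encodes neprilysin, a zinc endopeptidase that degrades natriuretic peptides, bradykinin and other small peptides. It had signals of 25.0, 28.1 and 26.1 in DPG, against 14.4, 21.8 and 19.0 in control. All DPG arrays were higher than all controls, and control 1 was again the lowest. This made a log2 fold change in Mme of 0.54 ± 0.16 (SE, n = 3 animals per group, limma adjusted p = 0.319), a 1.45-fold difference. The log2 fold change was 0.37 without control 1, and limma's unadjusted p was 0.0521 without DPG 2.

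Among the aminopeptidases, Anpep encodes aminopeptidase N, which removes mainly neutral residues from the amino end of peptides. Its signals were 35.4, 35.4 and 33.7 in DPG, against 17.8, 24.6 and 31.3 in control. The DPG arrays were close together (SD 0.04 on the log2 scale) while the control arrays spread widely (SD 0.41), and the highest control came near the lowest DPG array. A log2 fold change of 0.54 ± 0.20 resulted (SE, n = 3 animals per group, limma adjusted p = 0.382). It was 0.33 without control 1 and 0.74 without control 3, and the unadjusted p lay between 0.0717 and 0.0887 when control 2 or any DPG array was left out.

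Enpep encodes aminopeptidase A, which removes acidic residues and trims angiotensin II. It had signals of 24.4, 27.3 and 25.0 in DPG, against 25.2, 24.7 and 24.8 in control. The groups overlapped, and the log2 fold change was 0.04 with a 95% interval of -0.13 to 0.21 (limma adjusted p = 0.853). Its other probe was far dimmer, at 1.42, 1.82 and 1.56 in DPG and 1.82, 1.65 and 1.56 in control, with a log2 fold change of -0.07 ± 0.12. The log2 difference between Anpep and Enpep was higher in DPG than in control by 0.50, without overlap between the groups (exact permutation test, two-sided, p = 0.1, the smallest that 3 against 3 arrays can give; adjusted over 3 pairs, p = 0.15). It was 0.28 without control 1. The groups overlapped with normexp background correction (0.36, exact p = 0.3) and with the mean of probes (0.56, exact p = 0.2).

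Dpp4 encodes dipeptidyl peptidase 4, which removes dipeptides ending in proline or alanine and inactivates incretin hormones. The brightest probe had signals of 78.5, 87.9 and 85.1 in DPG, against 67.3, 70.7 and 67.3 in control. The controls were tightly grouped (SD 0.04 on the log2 scale) and lay below every DPG array. Its log2 fold change of 0.29 ± 0.07 (SE, n = 3 animals per group, limma unadjusted p = 0.00677, adjusted p = 0.279) was among the most precise of the 10 genes, next to Enpep in SE. The other probes gave 0.26 ± 0.10 and 0.28 ± 0.06, also without overlap, so the 3 probes of Dpp4 lay within a narrow range of fold change. Dpp4 differed least among the 7 genes, and unlike the other 6 it did not have its lowest control value in control 1.

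Ggt1 encodes the gamma-glutamyltransferase that begins the breakdown of luminal glutathione. Its signals were 105, 111 and 116 in DPG, against 73.3, 91.4 and 89.3 in control. All DPG arrays exceeded all controls, and control 1 was the lowest. Between the groups the log2 fold change was 0.40 ± 0.11 (SE, n = 3 animals per group, limma adjusted p = 0.292), and 0.29 without control 1.

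Dpep1 encodes the membrane dipeptidase that splits cysteinylglycine, the product of gamma-glutamyltransferase, and also cleaves leukotriene D4. It had signals of 9.99, 7.81 and 11.8 in DPG, against 13.5, 11.8 and 9.84 in control. The groups overlapped, with DPG 2 the lowest array and control 1 the highest. The log2 fold change was -0.26 with a 95% interval of -0.71 to 0.20 (limma adjusted p = 0.617). With an animal left out it ranged from -0.39 without DPG 3 to -0.10 without DPG 2, and it was -0.15 without control 1. Ggt1 and Dpep1, successive steps of luminal glutathione breakdown, thus had log2 fold changes of opposite sign, and the difference between them was not tested.

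Slc15a1 and Slc15a2 encode the proton-coupled transporters PEPT1 and PEPT2, which carry dipeptides, tripeptides and peptide-like drugs across the apical membrane; PEPT1 has low affinity and high capacity, PEPT2 high affinity. Slc15a2 had signals of 3.26, 3.84 and 2.91 in DPG, against 2.03, 3.10 and 2.06 in control. Control 2 lay above DPG 3, so the groups overlapped. For Slc15a2 the log2 fold change came to 0.50 ± 0.20 (SE, n = 3 animals per group, limma unadjusted p = 0.0457, adjusted p = 0.398), and the unadjusted p was 0.128 to 0.134 without control 1, control 3 or DPG 2, 0.0903 without DPG 1 and 0.0585 with no filter on dim probes.

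Slc15a1 had signals of 4.02, 3.00 and 3.03 in DPG, against 4.13, 3.85 and 4.72 in control. DPG 2 and DPG 3 lay below every control, while DPG 1 lay among them. For Slc15a1 the log2 fold change came to -0.35 ± 0.15 (SE, n = 3 animals per group, limma unadjusted p = 0.0541, adjusted p = 0.415), with a 95% interval of -0.70 to 0.01. With an animal left out it ranged from -0.49 without DPG 1 (limma unadjusted p = 0.00778) to -0.27 without control 3 (unadjusted p = 0.151), and it was -0.28 without DPG 2 or DPG 3. The mean of its probes gave -0.29 (unadjusted p = 0.109), and limma with trend and robust variance an unadjusted p of 0.0363. A pair of far dimmer probes for another RefSeq transcript of Slc15a1 gave -0.20 ± 0.17 and -0.32 ± 0.24, with overlapping groups.

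The log2 difference between Slc15a2 and Slc15a1 on the same array was higher in DPG than in control by 0.85. Relative to the control mean it was 0.54, 1.20 and 0.79 in DPG and -0.18, 0.53 and -0.35 in control. All DPG arrays lay above all controls, by a narrow margin between DPG 1 and control 2 (exact permutation test, two-sided, p = 0.1, the smallest possible; adjusted over 3 pairs, p = 0.15). The peptide transporter pair thus had log2 fold changes of opposite sign, and the test cannot pass 0.05 with these numbers of animals.

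**Figure D2:**
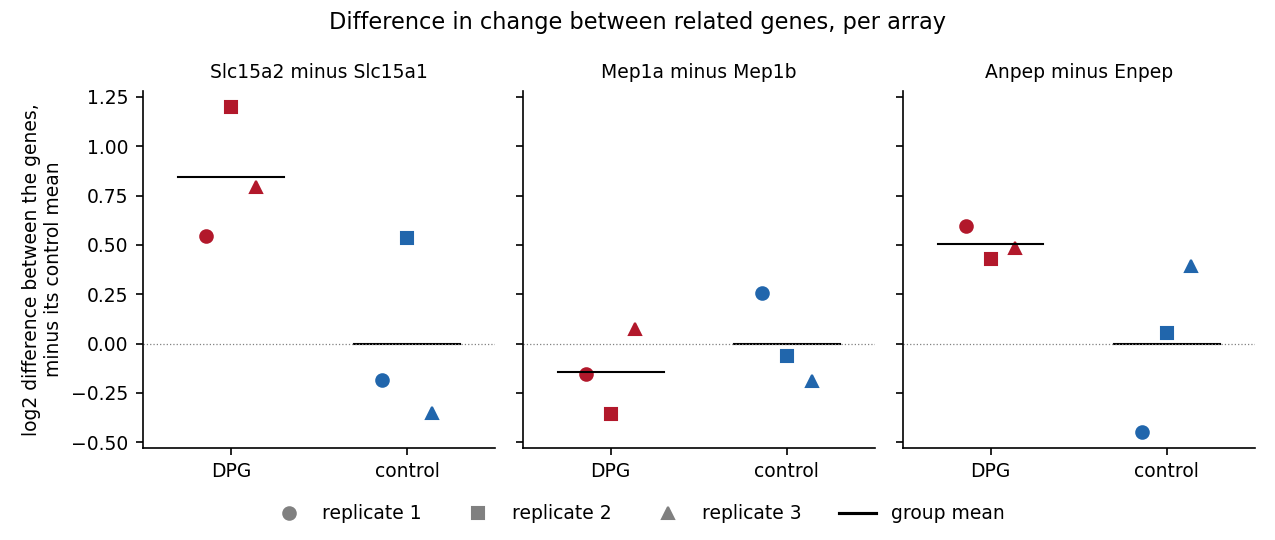
Log2 difference in signal between related genes on each array, minus its mean over the control arrays, with DPG on the left and control on the right of each panel and the group mean of 3 animals as a line. For Slc15a2 minus Slc15a1 the DPG mean is 0.85 and for Anpep minus Enpep it is 0.50, both without overlap as processed here, while for Mep1a minus Mep1b it is -0.15 with overlapping groups.

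**Figure D3:**
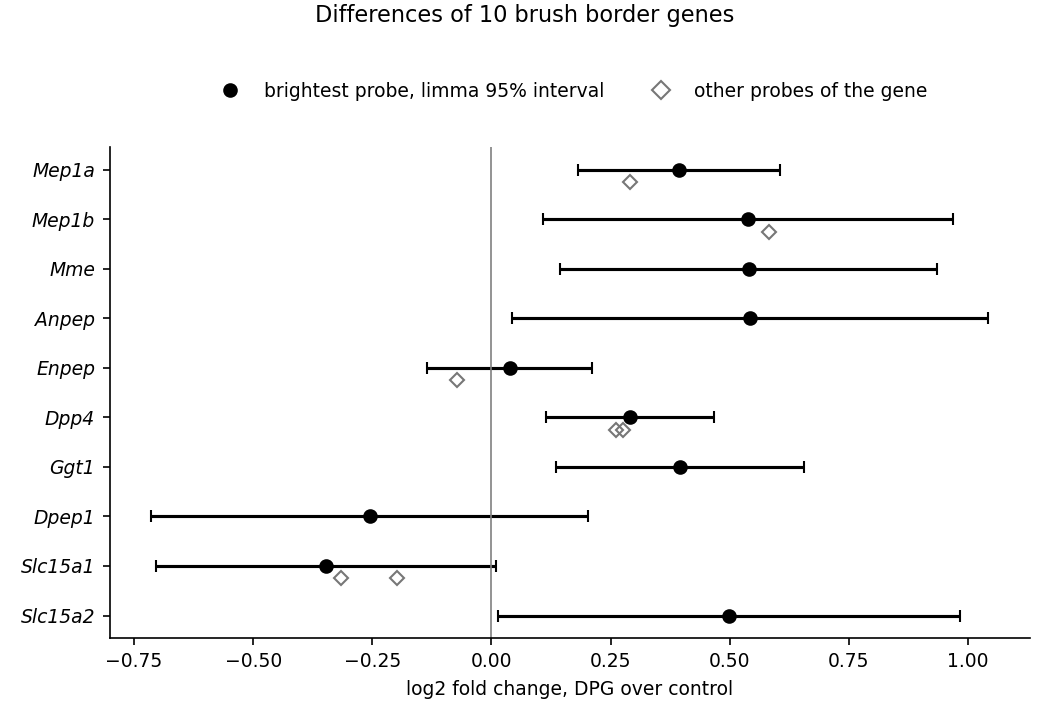
Log2 fold change, DPG over control, of each gene's brightest probe with its 95% interval from limma (n = 3 animals per group) and of the other probes of the gene as open diamonds. The intervals of Enpep, Dpep1 and Slc15a1 cross 0, and those of the other 7 genes lie above it, the lowest end being 0.01 for Slc15a2. The log2 fold changes of these 7 run from 0.29 for Dpp4 to 0.54 for Anpep.

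The probes of a gene share a target and are not replicates of the treatment. With every probe fitted on its own, 11 of the 17 had higher signal in DPG at an unadjusted p of 0.05 and none was lower, where 6.56% of all 40383 probes were higher. All DPG arrays lay above all controls for 10 of the 17, and for 10.5% of all probes. Only Enpep had probes with log2 fold changes of both signs. Of the 7 genes, 6 had their lowest control value in control 1. In contrast, control 1 was the highest control for Enpep and Dpep1, and control 2 was the lowest for Slc15a1. How many of all features were lowest in control 1 was not counted. The median shift of the 10 genes from the control mean was 0.38, 0.38 and 0.35 (log2) in DPG 1 to 3, and -0.16, 0.05 and 0.06 in controls 1 to 3. The median shift over all features stayed within 0.02 of 0 on every array.

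Genes were also ranked by how close their log2 profile over the 6 arrays, minus the control mean, lay to that of a member gene, by root mean square distance among 11923 other named genes. Closest to Mep1a, the gene of smallest p, were Tnk2 (0.06), Ust5r (0.06), Mefv (0.06), Hoxb7 (0.08) and Espl1 (0.08). Closest to Anpep, the gene of largest fold change, were Ms4a8 (0.08), Krt73 (0.09), Mep1b (0.09), Mxi1 (0.11) and Slco1a3 (0.12). Mep1b was the member of the brush border group within these lists.

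The stretches just before the start sites of Anpep and Mep1b are shown because their profiles lay close together and because they alone, of the 10 genes, held a match to the half-site of HNF1, a transcription factor of proximal tubule and gut epithelium. Each is 250 bases long, from RefSeq (GRCr8), written 5′ to 3′ on the strand of the gene, with GTTAAT or its reverse complement ATTAAC in capitals. The Anpep stretch lies at chr1:143195102-143195351 (minus strand) and the Mep1b stretch at chr18:12640791-12641040 (plus strand).
Anpep: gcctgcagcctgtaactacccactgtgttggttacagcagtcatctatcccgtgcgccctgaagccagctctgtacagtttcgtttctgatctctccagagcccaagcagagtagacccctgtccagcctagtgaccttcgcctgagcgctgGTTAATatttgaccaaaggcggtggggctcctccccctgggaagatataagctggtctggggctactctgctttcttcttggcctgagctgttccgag
Mep1b: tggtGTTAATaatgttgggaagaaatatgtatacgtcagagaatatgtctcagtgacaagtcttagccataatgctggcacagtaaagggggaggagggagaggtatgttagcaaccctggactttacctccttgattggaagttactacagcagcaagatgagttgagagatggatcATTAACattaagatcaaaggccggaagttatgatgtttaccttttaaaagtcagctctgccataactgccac
The match in Anpep begins 98 bases before the start site, and those in Mep1b begin 246 and 72 bases before it. Of 33469 rat stretches of the same length and position, 6.45% held at least 1 match on either strand. Another 6 motifs were searched on both strands. CAAAGT, which is part of the longer HNF4 motif CAAAGTCCA, was found in Mep1a and in 12.9% of all stretches, and TTTATNA (CDX) in Enpep and in 13.4%. TATAAA (12.9% of all stretches) and CAAAGTCCA (0.338%) were found in none of the 10. Neither was the full HNF1 palindrome, made of GTTAAT, 1 N and ATTAAC (0.00299%), nor the same palindrome without its outermost letters (0.0956%), both of which overlap the half-site. A match describes these letters only and says nothing about binding.

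Other lists, of peptidases and of peptide transporters with brush border partners, had medians nearer to 0. At an unadjusted p of 0.05, 6.68% of all features were higher in DPG and 5.7% lower. Of 16 tested genes in the list of other surface peptidases, which also held Cltrn, 1 was higher and 1 lower at an unadjusted p of 0.05. The median log2 fold change was 0.03. Folh1, a glutamate carboxypeptidase, had -0.32 ± 0.13 (SE, n = 3 per group). Ace, angiotensin-converting enzyme, had 0.84 ± 0.37 with overlapping groups, and Cltrn, the collectrin gene that partners amino acid transporters, had -0.12 ± 0.07. A further 6 genes of that list had no tested feature.

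The list of intracellular peptidases had 24 tested genes and also held enzymes that are not peptidases, such as Ggct. Of these 24, 2 were higher and 1 lower at an unadjusted p of 0.05, with a median of 0.06. Cndp2, a cytosolic dipeptidase that completes the digestion of absorbed dipeptides, had 0.34 ± 0.08, and Ggct, a gamma-glutamylcyclotransferase, had 0.41 ± 0.16. Dpp7, a lysosomal dipeptidyl peptidase, had -0.44 ± 0.16, and Dpp3, its cytosolic namesake, had 0.15 ± 0.06. Of 16 tested oligopeptide transporters and brush border partners, most of them not peptide transporters, 2 were higher and none lower, with a median of -0.04. These were the amino acid transporter gene Slc6a18 (0.43 ± 0.12) and Slc3a1 (0.29 ± 0.09), the subunit of the cystine transporter. The lysosomal peptide transporter gene Slc15a4 had 0.19 ± 0.08 and the microvillar linker gene Ezr -0.15 ± 0.07. Counts of these lists moved with the processing, up to 10 of 24 intracellular peptidases with normexp background correction. The median of each of these lists lay within 0.1 of that of all features, against 0.39 for the 10 genes, and the difference between lists was not tested. These lists, like the 10 genes, were chosen with earlier results of these data known.

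Some markers of tubule segments also differed at an unadjusted p, though none passed 0.05 after adjustment over all features. At an unadjusted p of 0.05, 6.68% of all features were higher in DPG and 5.7% lower. Of 8 markers of the straight proximal tubule, 5 were higher at an unadjusted p of 0.05, with a median log2 fold change of 0.36. Slc6a18 and Slc3a1, among these 5, were also in the list of brush border partners above, as was Slc1a1. Slc7a13 had 0.78 ± 0.16, Slc22a7 0.75 ± 0.23, Slc22a13 0.69 ± 0.14 and Slc6a18 the value above, all genes for amino acid or organic ion transporters. The summed signal of the list was 813 to 876 in DPG and 537 to 684 in control, with control 1 the lowest. A sum of linear signal mostly follows the brightest genes. Here these were Slc3a1 (mean log2 signal 8.90 in DPG, 8.61 in control) and Slc7a13 (8.27 and 7.49). Slc5a1 and Slc1a1, also markers of the straight part, had -0.12 and -0.15 with overlapping groups. Of 8 markers of the convoluted proximal tubule none was higher and 5 were lower at that p, with a median of -0.29 and a summed signal of 531 to 586 in DPG against 610 to 667 in control. Slc2a2, a glucose transporter gene, had -0.40 ± 0.13, Slc4a4, a bicarbonate transporter gene, -0.30 ± 0.10, Slc34a3 -0.30 ± 0.09 and Slc5a12 -0.29 ± 0.08.

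At the same unadjusted p, 3 of 4 thick ascending limb markers were higher (median 0.36, all 4 above 0), with summed signals of 624 to 674 in DPG and 516 to 558 in control. That sum mostly follows Umod, the brightest of the 4 (mean log2 signal 9.22 in DPG and 8.97 in control). Of 6 podocyte markers 3 were lower at that p (median -0.21, all 6 below 0), with sums of 29.2 to 36.0 in DPG and 31.4 to 39.7 in control. Of 5 collecting duct markers 2 were lower at that p (median -0.30, 2 above 0 and 3 below), with sums of 182 to 235 in DPG and 213 to 223 in control. Leukocyte markers had a median of 0.13 and sums of 99.9 to 135 in DPG against 102 to 124 in control. Only 1 of 6 was higher at that p, where 6.68% of all features were. Mme, Anpep and Dpp4 are also known from leukocytes. Markers of fibroblasts and mural cells had a median of 0.06, with none of 4 at that p. The part of these segment and cell type differences in the values of the 10 genes was not tested. In whole cortex, fewer or more cells of a type and less or more RNA per cell cannot be told apart.

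**Figure D4:**
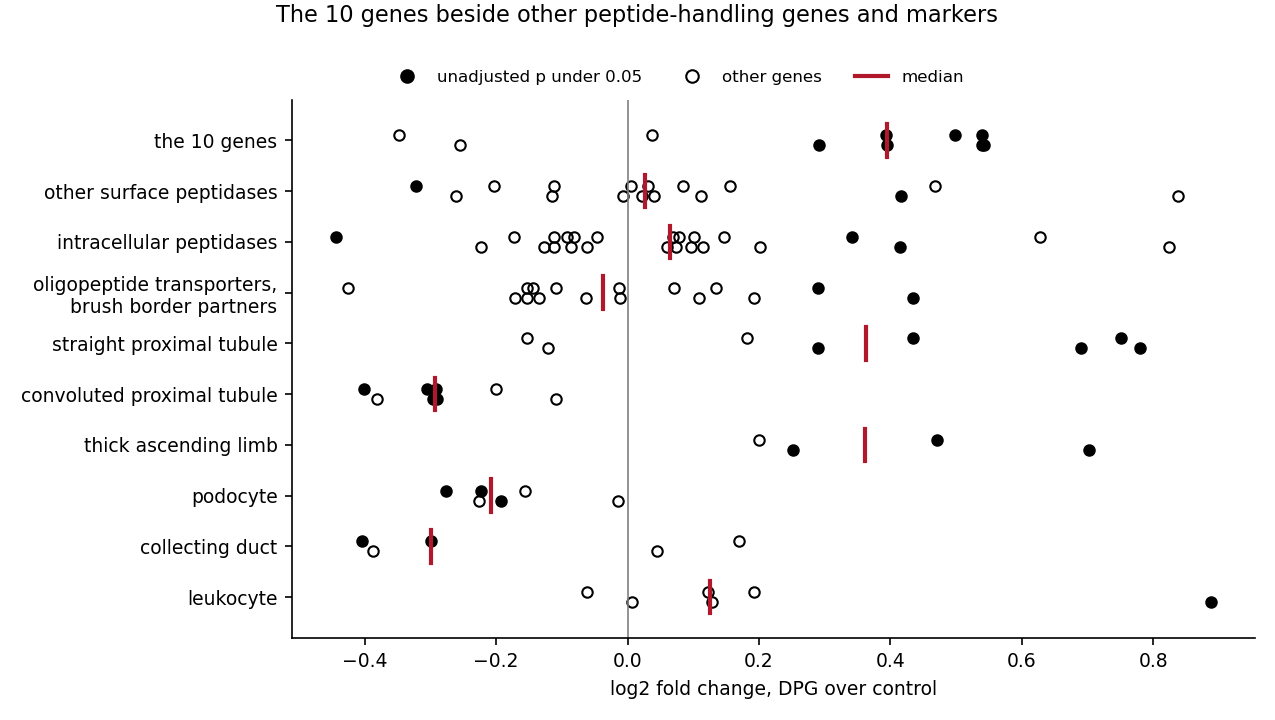
Log2 fold change, DPG over control, of single genes in the 10-gene group, the other peptidase, transporter and partner lists and the marker lists. Filled circles are genes at an unadjusted limma p under 0.05, and a red line marks the median. The 10 genes have a median of 0.39, markers of the straight proximal tubule 0.36, and those of the convoluted part -0.29. The other peptidase, transporter and partner lists centre between -0.04 and 0.06.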

How the data were processed

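Cy3-labelled cRNA of each of 6 rats went on a 1-colour Agilent array, per the labels' protocols. Agilent Feature Extraction wrote the scanner files, in version 10.7.1.1 according to their headers (10.7 in the submitters' processing notes). Per the file headers, they hold the authors' processed spot intensity, background-subtracted and detrended but unscaled between arrays. The deposited table of the series holds linear signal, each value about the processed signal over the 75th percentile of its array (median 0.108 to 0.114 per array). Its direction is that of the scanner signal, it is not centred per gene, and the authors' scaling was not given in the sources used here.

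From the scanner files, control spots were dropped and log2 processed intensity was taken minus each array's 75th percentile. Probes had to be well above background on every array of either group (40406), less 23 with an outlier flag. Unversioned RefSeq accessions (GRCr8 gene table) named 28206 probes. The brightest kept probe stood for each gene (29647 features). DPG was set against control by limma (version 3.58.1, R 4.3.3; moderated two-sided test with lmFit and eBayes, 4 residual degrees of freedom), with Benjamini-Hochberg adjustment over all features. Values written a ± b are log2 fold changes with limma's SE. The fit was tested on simulated data.

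The genes and lists were chosen with earlier results of these data known. Named were the 10 genes, up to 4 genes of smallest p per peptidase, transporter or marker list, and the 5 nearest profiles. Slc5a1, Slc1a1 and the markers without values were named outside that rule. A gene that the rule picks is not reported here. The 2 adipocyte markers tested went opposite ways, Fabp4 with 1.89 ± 0.70 and overlapping groups and Adipoq with -0.45 ± 0.14 and all DPG below all control. Numbers shared by DPG and control replicates did not mark pairs: deviations correlated at -0.02, -0.09 and -0.07. There were 18 alternatives.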

Additional observations from a re-analysis of the deposited data

How the results depend on the processing

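No adjusted call was made with all 6 arrays kept, and 0 to 1 with an animal left out (1 without DPG 2; the cause was not tested). The 7 genes were 6 to 8 under the 12 alternatives that kept all arrays, and 3 to 6 with an animal left out. Of all features, 7.31% (no filter on dim probes) to 15.1% (normexp) passed an unadjusted p of 0.05 with all arrays kept, the replicate block aside. With an animal left out, 8.56% to 13.2% passed. The count without overlap was 6 to 7 (14.7% to 22.8% of all features), and 6 to 8 with an animal left out (27.6% to 34.3%). Features at an unadjusted p of 0.05 numbered 2987 with the replicate block to 5008 with every probe on its own, where 40383 probes were tested. That last share was 12.4%, the same as with the 29647 features used above. With an animal left out they numbered 2537 to 3914. With the replicate block 6 of the 10 genes passed, Anpep being lost at a limma unadjusted p = 0.0513, and no other of the 10 changed. Enpep changed sign with the mean of its probes (-0.017) and without DPG 2, its range with an animal left out being -0.011 to 0.072. With normexp background correction Enpep rose to 0.15 (limma unadjusted p = 0.0586). The log2 difference of Slc15a2 minus Slc15a1 kept its sign, at 0.67 to 1.11 with an animal left out, as did Anpep minus Enpep (0.28 to 0.70) and Mep1a minus Mep1b (-0.25 to -0.02).

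Intracellular peptidases at an unadjusted p of 0.05, 3 in all, numbered 10 with normexp, 7 with trend and robust variance, 5 with array quality weights, and 1 to 4 with an animal left out. Other surface peptidases, 2 in all, numbered 1 with array median scaling, with no filter on dim probes and with the mean of probes, and 1 to 3 with an animal left out. Transporters and partners, 2 in all, numbered 4 with normexp and with trend and robust variance, and 1 to 4 with an animal left out. The cause was not tested. Slide as a block gave no fit, since each slide held 1 group. The alternatives of the variance model and the replicate block do not apply to the differences between related genes.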
